A study of Mus musculus with 93 samples.

Results

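Intraflagellar transport (IFT) carries cargo along the axoneme of a cilium, and the transition zone at the base of the cilium acts as a gate for membrane and soluble proteins. The genes described here are 37 of the 32640 gene symbols in the deposited table, taken by symbol: 15 IFT-B subunits (9 of the core and 6 of the peripheral group), 5 IFT-A subunits, 4 kinesin subunits, 2 dynein-2 subunits, 3 small GTPases, 1 membrane cargo adaptor, 4 transition zone genes and 3 transcription factors of ciliary genes. The list was drawn up by function, with earlier results of these data known. All 37 are in the table, and 35 reached an FPKM (fragments per kilobase of transcript, scaled to the size of the library) of 1 in at least 9 of 85 cells; Ttc21b with 5 cells and Kif17 with 8 cells did not.

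RNA was measured in 85 single cells, picked by hand from dissociated olfactory epithelium of C57BL/6 mice, and the labels place them in 5 stages of the olfactory sensory neuron lineage: 11 cells are labelled Progenitor and 9 Precursor, 27 are Early and 13 Late Immature Neurons, and 25 are Mature Neurons. No allele, transgene or treatment is labelled for any stage. How each cell was given its stage is not labelled either, so the transcripts themselves may have served for it, and a difference between stages is a description of the labelled groups. Poly(A) RNA was primed with oligo(dT), amplified by PCR and made into libraries by a kit for DNA, which keeps no strand; 8 cells also have a technical repeat library. Since a library holds 1 cell and the animals of origin are not labelled, each stage stands for 1 sample; stages are compared by size alone, without tests or p-values.

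As background, IFT trains are drawn outward from the ciliary base by the kinesin-2 motor and drawn back by dynein-2. IFT-A helps membrane receptors to enter the cilium. Olfactory sensory neurons carry many long, mostly immotile cilia on the knob of the dendrite, and the odorant receptors and the transduction channel sit in the membrane of these cilia. RFX transcription factors bind a motif called the X-box upstream of many ciliary genes, and Foxj1 is the master regulator of motile ciliogenesis.

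The promoters are shown first because the X-box is the sequence that the RFX factors of the list, Rfx2 and Rfx3, bear on. RefSeq promoters (build GRCm38.p6, 250 bases before to 50 bases after the annotated start) were found for 30 of the 37 genes. For Ift46 and Dync2h1 this window lies inside the gene as placed by the annotation that the authors deposited, and not at its outer start. Both strands were searched for the X-box arm GTTGCC and for a full X-box written as GTTNCCNNGGNAAC. The arm was in 15 of the 30 promoters (50%), against 12.7% of all 27025 promoters and 13.7% of the 7140 promoters of genes that were compared between stages. The full motif was in 2 of the 30 (6.67%), against 0.444% of all promoters and 0.616% of those compared. The median GC content was 60.3% in the 30 promoters and 61.3% in those of the genes compared. The full motif can contain the arm, so the counts are not separate. A match is a description of the letters and not a bound site. The arm lay before the start in 10 of the 15 promoters. In those of Ift88, Ift172, Wdr35, Dync2h1 and Rfx3 it lay only at or after the start. The windows below are 40 bases from promoters in which the arm lies before the start. They run 5′ to 3′ on the strand of the gene, and capitals mark the arm. Windows of Ift27, with the arm at position -9, and of another arm of Ift57 at position -87 are not printed.
Ttc26: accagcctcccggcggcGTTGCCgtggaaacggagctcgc
Mks1: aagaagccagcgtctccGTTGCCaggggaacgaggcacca
Ift57: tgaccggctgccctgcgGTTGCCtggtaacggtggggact
Kif17: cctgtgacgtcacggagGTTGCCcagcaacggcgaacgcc
Arl13b: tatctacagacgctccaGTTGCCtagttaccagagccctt
Kif3a: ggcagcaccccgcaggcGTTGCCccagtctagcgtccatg
Ift140: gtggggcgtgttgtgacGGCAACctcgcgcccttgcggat
Rfx2: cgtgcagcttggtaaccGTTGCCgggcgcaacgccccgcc
The windows of Ttc26 at chr6:38381474-38381513 (plus strand) and Mks1 at chr11:87853174-87853213 (plus strand) hold the 2 full motifs, GTTGCCGTGGAAAC at position -33 and GTTGCCAGGGGAAC at position -24, counted from the start with -1 as the base before it. The window of Ift57 at chr16:49699217-49699256 (plus strand) holds both arms with 1 base between them and no letter off, as GTTGCCTGGTAAC. The other windows are Kif17 at chr4:138262161-138262200 (plus strand), Arl13b at chr16:62847199-62847238 (minus strand), Kif3a at chr11:53567254-53567293 (plus strand), Ift140 at chr17:25015960-25015999 (plus strand), where the arm lies on the opposite strand, and Rfx2 at chr17:56831102-56831141 (minus strand). A pair of arms (GTTNCC and its reverse complement) 0 to 4 bases apart with at most 1 letter off was in 8 of the 30 promoters (26.7%), against 6.29% of all promoters and 8.22% of those of genes compared. The forkhead letters GTAAACA were in 0 of the 30, against 3.55% of all promoters and 2.44% of those of genes compared, so 0 is near these low shares. The whole promoters of Traf3ip1 (chr1:91494418-91494717, plus strand) and Arl3 (chr19:46573133-46573432, minus strand), the genes with the largest difference between Early Immature Neurons and Precursors and between Late and Early Immature Neurons, are printed whole, with the arm of Traf3ip1 in capitals; neither motif was found in the window of Arl3.
Traf3ip1: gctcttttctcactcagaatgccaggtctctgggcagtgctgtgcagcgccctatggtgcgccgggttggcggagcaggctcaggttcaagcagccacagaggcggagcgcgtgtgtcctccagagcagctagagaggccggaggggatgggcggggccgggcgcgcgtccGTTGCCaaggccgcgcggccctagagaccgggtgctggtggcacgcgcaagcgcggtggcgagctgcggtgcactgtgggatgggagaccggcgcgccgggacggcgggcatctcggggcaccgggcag
Arl3: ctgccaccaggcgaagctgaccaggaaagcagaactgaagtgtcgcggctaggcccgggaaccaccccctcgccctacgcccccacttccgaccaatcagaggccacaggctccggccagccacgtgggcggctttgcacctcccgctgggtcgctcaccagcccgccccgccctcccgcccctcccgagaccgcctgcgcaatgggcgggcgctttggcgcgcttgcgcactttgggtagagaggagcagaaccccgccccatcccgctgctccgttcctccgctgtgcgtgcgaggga

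Across the whole series, 1 FPKM on 1 kb of transcript stood for 0.607 to 10.6 fragments per library, with stage medians of 6.57, 7.35, 6.07, 5.47 and 4.48 from Progenitor to Mature Neuron. The median share of FPKM on mitochondrial genes was 44.4, 37.4, 44.1, 55.6 and 67.0% in the same order. Omp, the marker of mature sensory neurons, which the assignment of stages may itself have used, was detected in 25 of 25 Mature Neurons and 2 of 11 Progenitors. The neutrophil genes S100a8 and S100a9 reached an FPKM of 100 in 8 Progenitors and 1 Precursor, and Cbr2, a gene of sustentacular cells, was detected in 20 of 25 Mature Neurons with a median of 210 FPKM. Of 11 blood and immune genes 0 were higher and 5 lower in Mature Neurons than in Progenitors by the size used below, and their summed level was 0 to 78.9 FPKM in Mature Neurons and 0 to 771 in Progenitors. Of 7 sustentacular genes 3 were higher and 2 lower, and their summed level was 0 to 2344 FPKM in Mature Neurons and 0.0875 to 597 in Progenitors. Cell names fall in 4 ranges over which the stages are spread unevenly: D168 to D205 holds 8 of 11 Progenitors and 0 Mature Neurons, and D213 to D274 holds 16 of 25 Mature Neurons and 0 Progenitors. D316 to D434 is the range that holds all stages (3 Progenitors, 5 Precursors, 19 Early and 6 Late Immature Neurons, and 4 Mature Neurons). All 8 Progenitors with the neutrophil genes lie outside that range, so the values within it are also values without them.

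Technical error was large at the level of single genes. In the 8 cells with a repeat, 201 gene values were detected (FPKM of at least 1) in the repeat or the first library, and 106 of them in both. Of 109 values at an FPKM of 10 or more in the first library, 73 were detected in the repeat. The median absolute difference between both libraries of a cell, taken per cell over values detected in either, had a median of 3.65 on the log2(FPKM + 1) scale. A value at 0 in a single cell therefore does not show that the gene is silent there, and single cells are not read as such. Of 6 housekeeping genes, Hprt was listed at 0 in 9 of 85 cells, and Actb, Gapdh, Tuba1a, Eef1a1 and Ppia in 0.

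**Figure D1:**
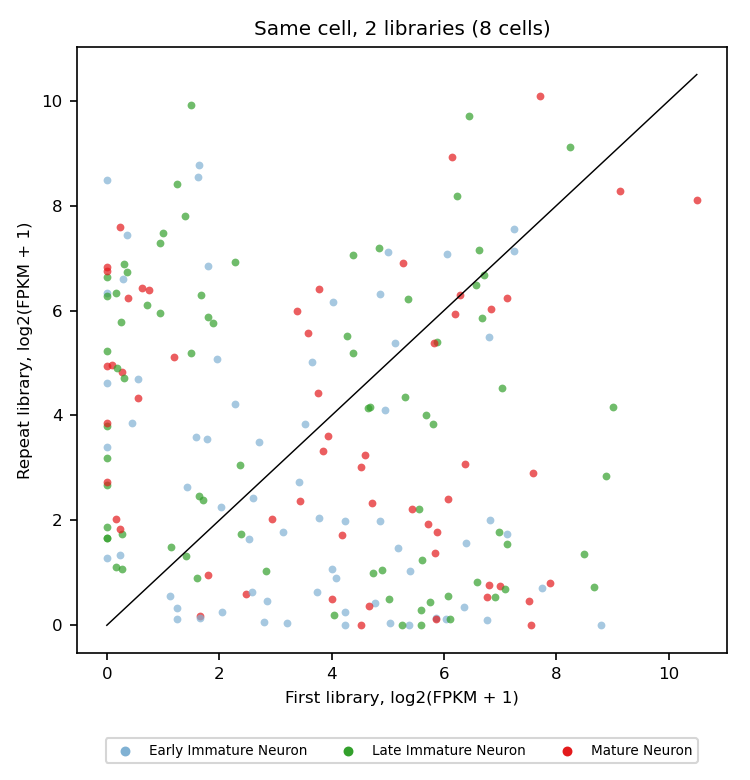
Level of each of the 37 genes detected in either library, in the repeat library (vertical axis) against the first library (horizontal axis) of the same cell, both as log2(FPKM + 1), for 8 cells coloured by stage; the line marks equal values. Points lie along both axes, and 106 of 201 values were detected in both libraries.

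Late Immature and Mature Neurons had more of the 37 genes detected per cell than Progenitors. The number per cell averaged 13.2 ± 3.8 in Progenitors, 13.7 ± 3.4 in Precursors, 17.8 ± 5.2 in Early Immature Neurons, 21.6 ± 2.8 in Late Immature Neurons and 19.2 ± 3.9 in Mature Neurons (SD over 11, 9, 27, 13 and 25 cells). Late Immature Neurons had 16 to 26 with a median of 22, and Early Immature Neurons 10 to 28 with a median of 16, so the groups overlap. Mature Neurons had 10 to 28 with a median of 20, and Progenitors 8 to 19 with a median of 14, which also overlap. Within D316 to D434 the medians were 17, 13, 16, 22.5 and 21 from Progenitor to Mature Neuron, so Early Immature Neurons were not above the 3 Progenitors there, and the means of Late Immature and Mature Neurons were both 22.5. Set against all genes detected in the cell, the median was 2.84, 3.29, 4.27, 4.65 and 5.11 of the 37 per 1000 genes from Progenitor to Mature Neuron. The lowest Mature Neuron and the highest Progenitor were both at 3.78, and the other Mature Neurons were above all Progenitors. The order was thus higher in Late Immature than in Mature Neurons by the count, and the reverse relative to all genes, since Mature Neurons had a median of 3529 genes detected and Late Immature Neurons 4519. Over the cells of a stage, the count moved with the number of all genes detected (Pearson's r 0.85 in 11 Progenitors, 0.83 in 27 Early Immature Neurons and 0.73 in 25 Mature Neurons, and 0.77, 0.83 and 0.66 without the 2 cells farthest from the median); these points share the library and its depth. In 9 Precursors r was 0.54 and in 13 Late Immature Neurons 0.46, and without the 2 farthest cells it was 0.03 and -0.28.

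**Figure D2:**
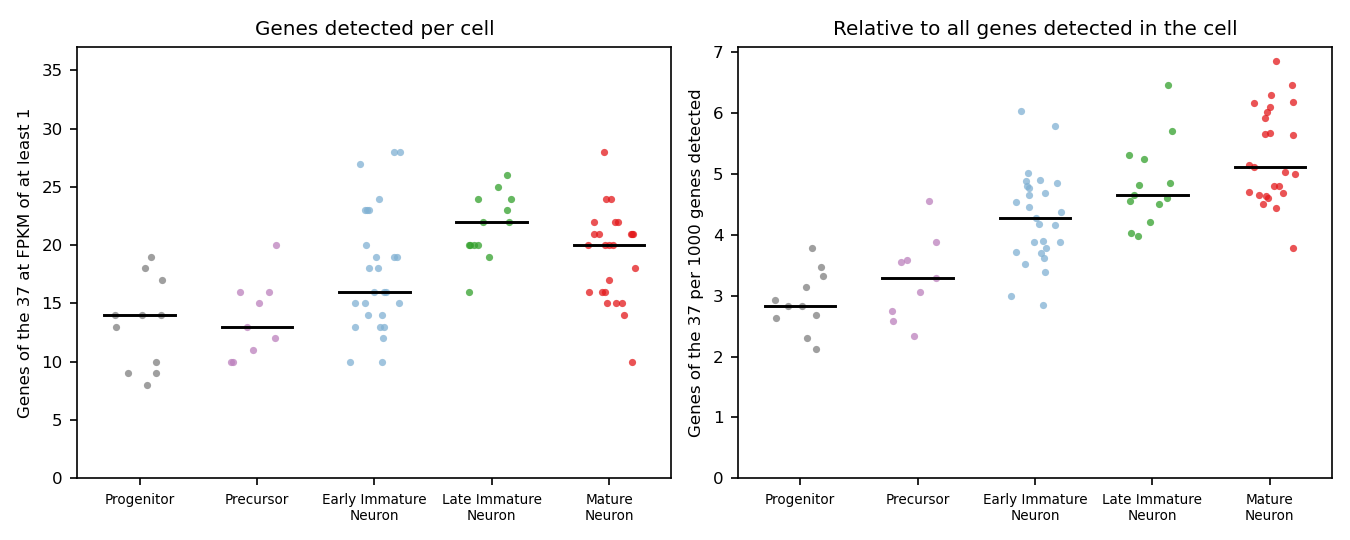
Left, number of the 37 genes at an FPKM of at least 1 in each cell by stage; right, the same number per 1000 genes detected in that cell. Points are cells and lines are medians, which run 14, 13, 16, 22 and 20 on the left and 2.84 to 5.11 on the right.

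Over all pairs of gene and cell, the share detected was 35.6, 36.9, 48.1, 58.4 and 51.8% from Progenitor to Mature Neuron, beside 41.5, 39.4, 39.1, 43.3 and 34.6% for the 9894 genes at FPKM 1 or more in at least 9 cells. The 15 IFT-B genes were detected more often than the 5 IFT-A genes at every stage. For IFT-B the shares were 43.6, 43.0, 55.6, 66.7 and 58.7%, and for IFT-A 21.8, 17.8, 31.9, 44.6 and 27.2%. The 6 motor subunits lay between them at 42.4, 38.9, 50, 57.7 and 54.0%. The 4 transition zone genes, at 20.5, 27.8, 30.6, 30.8 and 35.0%, had low shares throughout, and were the group of these 4 whose share was highest in Mature Neurons. The 3 GTPases had the highest shares of all groups from the Precursor stage on, at 66.7, 71.6, 87.2 and 85.3%, and 36.4% in Progenitors. Longer genes had lower levels (Pearson's r -0.40 and Spearman's rho -0.30 between exon length and mean log2(FPKM + 1) over the 37 genes), and the IFT-A genes, with 4403 to 5497 bases of exon, are longer than the IFT-B genes other than Ift172.

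**Figure D3:**
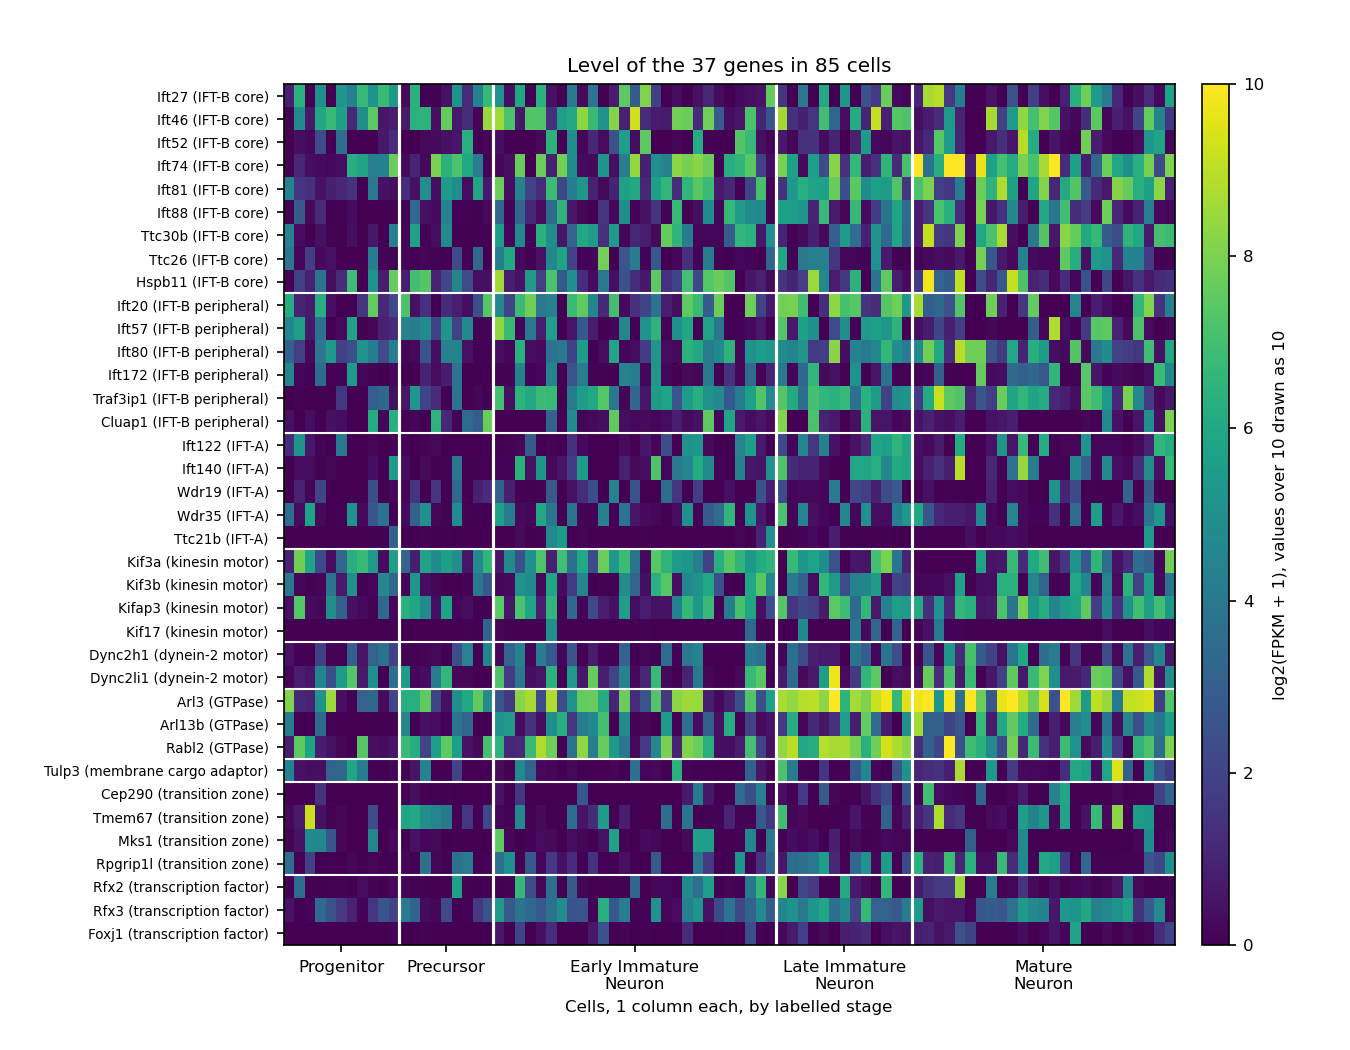
Level of the 37 genes (rows, by role) in 85 cells (columns, by stage from Progenitor to Mature Neuron) as log2(FPKM + 1), with values over 10 drawn as 10. The rows of Arl3 and Rabl2 are bright in all 13 Late Immature Neurons, and the rows of Ttc21b, Kif17, Cep290 and Foxj1 are dark in most cells.

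Stages were compared by the difference of mean log2(FPKM + 1), later minus earlier, which understates the change of low genes, and a gene is counted as higher or lower where this difference reached 1. Mature Neurons had 15 of the 37 genes higher than Progenitors (40.5%) and 3 lower (8.11%). Of all genes compared, 18.4% were higher and 28.6% lower. The median difference was 0.88 over the 37 genes and -0.20 over all genes compared. Within cells D316 to D434 the counts were 19 higher (51.4%) and 2 lower (5.41%), beside 29.6% higher and 28.9% lower of all genes compared, with a median of 1.01 and of 0.0029 over all genes. Without the 15 Mature and 2 Progenitor cells (and cells of other stages) in which Cbr2 or Cyp2g1 reached 100 FPKM, the median was 0.45, with 14 higher and 5 lower, beside 18.3% and 32.7% of all genes. Counts without the 8 Progenitors with S100a8 or S100a9 were 17 higher and 5 lower, beside 21.2% and 32.1% of all genes. Scaling each library to the same sum over nuclear genes moved the median of all genes by -0.34, to -0.54, and the share of all genes lower to 39.3% and higher to 16.2%; the 37 genes then had a median of 0.55, with 15 higher and 3 lower. Since FPKM is a share of the library, more transcripts of a gene and less of the other RNA cannot be told apart. Of the 15 genes that were higher, Ttc26 had a difference of 0.95 without Mature Neuron D223 (and also under 1 without D255), and Tmem67 had 2.11 without Progenitor D172; of the 3 that were lower, Mks1 had -0.77 without D172 and was above -1 also without D175, D174 or D330.

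**Figure D4:**
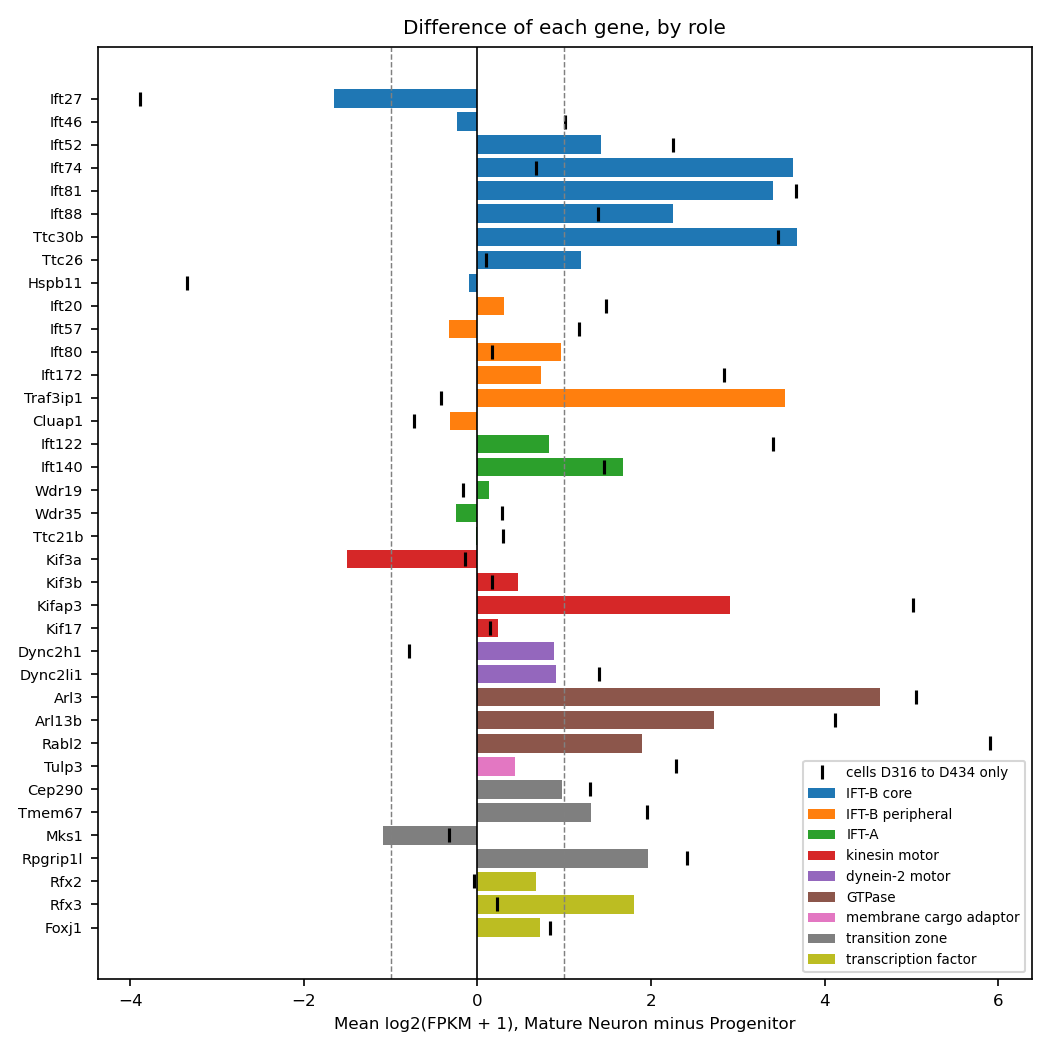
Difference of mean log2(FPKM + 1), Mature Neuron minus Progenitor, for each of the 37 genes (bars, coloured by role), with the same difference in cells D316 to D434 alone as black ticks; dashed lines mark -1 and 1. Bars of 15 genes pass 1 and bars of 3 pass -1, and among these the tick of Traf3ip1 lies on the other side of 0.

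Step by step, the difference between Precursors and Progenitors was small for most of the 37 genes: 5 were higher (13.5%) and 4 lower (10.8%), beside 12.5% higher and 13.9% lower of all genes compared. Higher were Rabl2, Arl3, Tmem67, Ift81 and Cluap1, and lower were Ift80, Mks1, Ift27 and Tulp3. Ift81 had 0.83 without Precursor D383 and was under 1 without D319, D345 or D195, Cluap1 had 0.50 without D398 and was under 1 without D242, and Tulp3 had -0.89 without Progenitor D189. The count higher was 8 without Progenitor D169. Within cells D316 to D434, 7 were higher (18.9%) and 12 lower (32.4%), beside 16.9% and 24.0% of all genes; Tmem67 had 0.78 there, Cluap1 -1.15 and Tulp3 0.35.

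Early Immature Neurons had 13 of the 37 genes higher than Precursors (35.1%) and 2 lower (5.41%), beside 16.5% higher and 15.8% lower of all genes compared; the median was 0.71, and 0.07 over all genes. The differences of the 13 reached 3.16 for Traf3ip1, 1.96 for Ttc30b, 1.67 for Ift140, 1.61 for Kif3b and 1.58 for Ift80. The 2 that were lower were Tmem67 at -2.13 and Cluap1 at -1.17. Within D316 to D434, 10 were higher (27%) and 2 lower (5.41%), beside 21.3% higher and 18.1% lower of all genes. The share higher is thus nearer to that of all genes in this range. The median there was 0.59, and 0.14 over all genes. Tmem67 had -0.43 in that range, and of the 13 genes that were higher, Ift46 had 0.60 there, Ttc26 0.30, Ift20 0.92 and Arl13b 0.82. Among the smaller differences, Ift46 had 0.60 without Precursor D383 and was under 1 without any of 19 cells, Arl13b had 0.97 without D383 and was under 1 without any of 6, Ift122 had 0.88 without D425 and was under 1 without any of 5, Ttc26 had 0.97 without D331, and Mks1 had 0.99 without D168. Cluap1 had -0.51 without Precursor D398 and was above -1 also without D242, which leaves 1 gene lower.

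Late Immature Neurons had 12 of the 37 genes higher than Early Immature Neurons (32.4%) and 2 lower (5.41%), beside 17.6% higher and 10.9% lower of all genes compared, with a median of 0.33, and 0.05 over all genes. Arl3 and Rabl2 led with 3.85 and 3.80, followed by Ift122 with 1.90, Ift20 with 1.65 and Ift81 with 1.65. Lower were Kif3a by 1.36 and Mks1 by 1.13. Ift57 had 0.95, Ift140 0.98 and Tulp3 0.91 without Late Immature Neuron D77, Ift80 had 0.94 without D234, and Mks1 had -0.89 without Early Immature Neuron D168 and was above -1 also without D332, D401 or D394, which leaves 1 gene lower.

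Mature Neurons had 4 of the 37 genes higher than Late Immature Neurons (10.8%) and 7 lower (18.9%), beside 3.2% higher and 18.3% lower of all genes compared, with a median of -0.28, and -0.27 over all genes. Higher were Ift74, Ttc30b, Tmem67 and Ift52. Lower were Rabl2, Ift20, Ift57, Ift140, Traf3ip1, Ift122 and Rfx3. Within D316 to D434, 11 were higher (29.7%) and 12 lower (32.4%), beside 17.9% and 21.6% of all genes, with a median of -0.11, and Ift20 had 0.0089 and Ift122 -0.76. The count lower was 12 without Late Immature Neuron D234 or D250, and 11 without D343 or without Mature Neuron D243 or D253. Scaling each library to the same sum over nuclear genes moved the median of all genes in this pair by -0.33, to -0.60, the share of all genes lower to 33.8% and higher to 1.58%, and the median of the 37 genes to -1.03 with 19 lower. Ift52 had 0.92 without Mature Neuron D245 and was under 1 without D260 or D81, Ift122 had -0.83 without Late Immature Neuron D412 and was above -1 without any of 4 other cells, Ift140 had -0.91 without D77 and was above -1 also without D344, Traf3ip1 had -0.998 without D342, and Rfx3 had -0.81 without D343 and was above -1 without any of 17 cells.

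Arl3, a small GTPase that frees lipidated proteins from their carriers inside the cilium, had the largest difference between Mature Neurons and Progenitors. It lies at chr19:46531109-46573085 on the minus strand (mm10) with 822 bases of exon. Its median FPKM was 2.98 in Progenitors (0 to 363), 66.0 in Precursors (0.358 to 188), 33.9 in Early Immature Neurons (0.154 to 453), 422 in Late Immature Neurons (86.3 to 1034) and 491 in Mature Neurons (2.66 to 1587). All 13 Late Immature Neurons were above the medians of the earlier stages, while the lowest Mature Neuron, at 2.66 FPKM, was near the Progenitor median. The difference of mean log2(FPKM + 1) was 4.63 for Mature Neurons minus Progenitors (5.05 within D316 to D434), 3.85 for Late minus Early Immature Neurons and 2.08 for Precursors minus Progenitors. It was detected in 25 of 25 Mature Neurons (exact Clopper-Pearson 95% interval from 86.3%) and 7 of 11 Progenitors (30.8 to 89.1%), where intervals cover counting error only.

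Rabl2, a GTPase linked to IFT-B at the ciliary base, had its highest median in Late Immature Neurons. It lies at chr15:89582533-89591923 on the minus strand. Its median FPKM was 0.448 in Progenitors (0 to 175.3), 47.8 in Precursors (0.185 to 184.2), 17.4 in Early Immature Neurons (0 to 443), 330 in Late Immature Neurons (63.2 to 662) and 10.7 in Mature Neurons (0 to 1043). Every Late Immature Neuron was above the median of each other stage. The difference was 3.80 for Late minus Early Immature Neurons and -3.94 for Mature minus Late Immature Neurons, and within D316 to D434 these were 3.97 and -1.77. For Mature Neurons minus Progenitors it was 1.90, and 5.90 within D316 to D434, where the 4 Mature Neurons had 10.7 to 263 FPKM and the 3 Progenitors 0.252 to 0.448.

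Arl13b, the GTPase of the ciliary membrane that activates Arl3, had lower levels. It was detected in 2 of 11 Progenitors, 3 of 9 Precursors, 15 of 27 Early Immature Neurons, 8 of 13 Late Immature Neurons and 18 of 25 Mature Neurons. Mature Neurons had a median of 10.98 FPKM (0 to 401.3) and Progenitors of 0 (0 to 17.7), with a difference of 2.72.

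**Figure D5:**
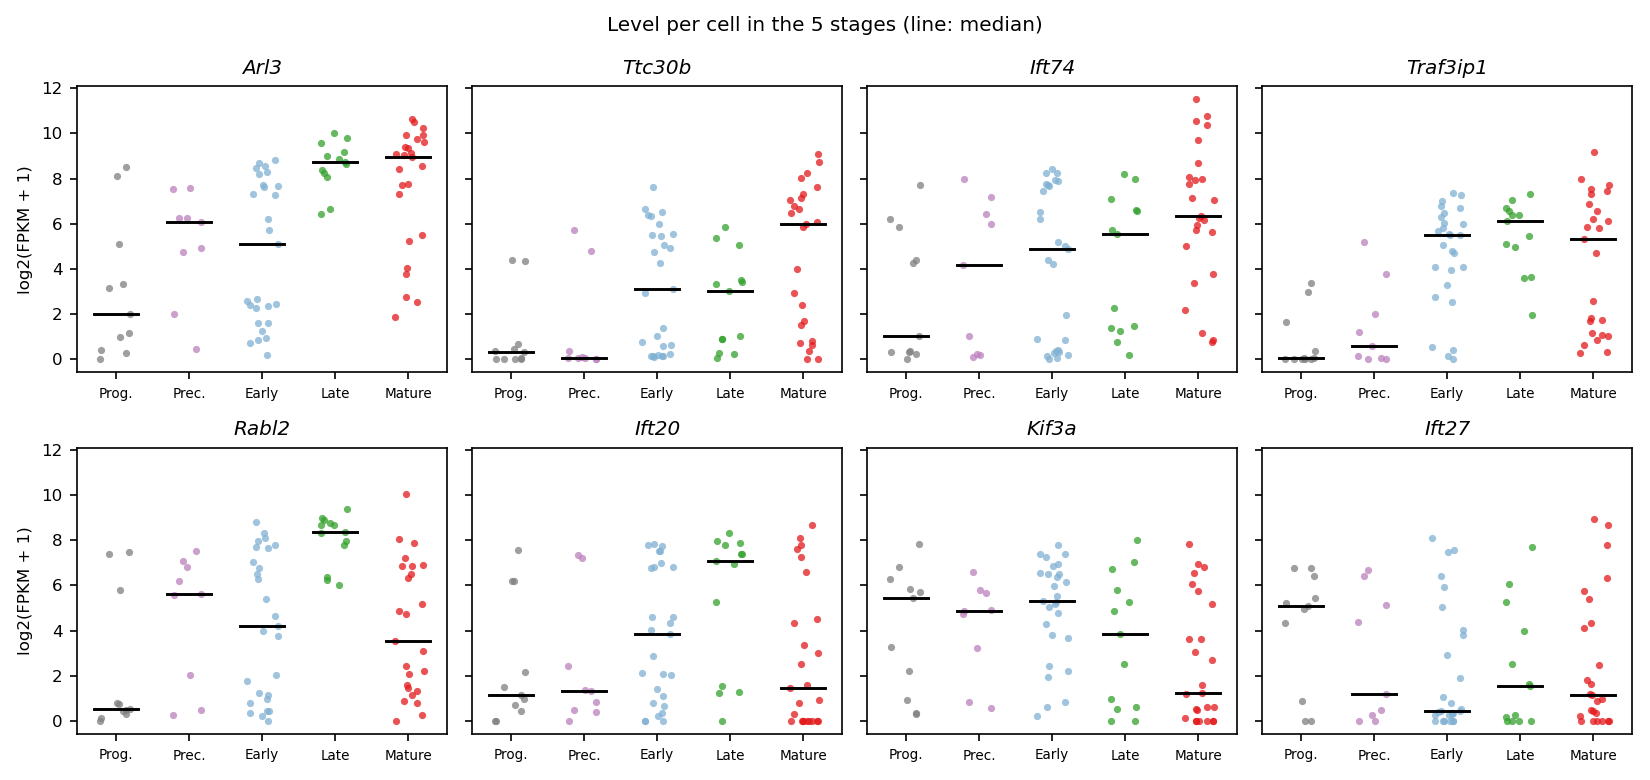
Level per cell of 8 genes in the 5 stages as log2(FPKM + 1), with 1 point per cell and a line at the median. Arl3 is high in all 13 Late Immature Neurons (86.3 to 1034 FPKM) and in most Mature Neurons, Rabl2 and Ift20 are highest in Late Immature Neurons, and Kif3a has its lowest median in Mature Neurons (1.33 FPKM).

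Among the IFT-B core subunits, 6 of 9 were higher in Mature Neurons than in Progenitors and 1 was lower. Of all genes compared, 18.4% were higher and 28.6% lower. Ttc30b, a tetratricopeptide subunit that binds IFT-B, lies at chr2:75935863-75938462 on the minus strand. Its median FPKM was 0.240 in Progenitors (0 to 20.3), 0.0587 in Precursors (0 to 52.0), 7.74 in Early Immature Neurons (0.0679 to 196), 7.07 in Late Immature Neurons (0.0588 to 56.9) and 63.1 in Mature Neurons (0 to 542). The top of the Progenitors lies below the Mature Neuron median, but low Mature Neurons overlap with them. The difference for Mature Neurons minus Progenitors was 3.68 (3.46 within D316 to D434). Its close copies could share its reads: Ttc30a1 was detected in 4 of 25 Mature Neurons and 2 of 11 Progenitors, and Ttc30a2 in 0 cells of any stage, so the split between copies is uncertain.

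Ift74 and Ift81, which form the tubulin-binding pair of IFT-B, were both higher in Mature Neurons. Ift74 (chr4:94614491-94693229, plus strand) had medians of 1.07, 17.3, 28.2, 46.3 and 80.3 FPKM from Progenitor to Mature Neuron. Mature Neurons had 0.687 to 2939 FPKM and Progenitors 0 to 209, with a difference of 3.63. Within D316 to D434 that difference was 0.67, where the 3 Progenitors had 18.2, 20.0 and 209 FPKM, and the 4 Mature Neurons 3.56 to 264. Ift81 (chr5:122550204-122614518, minus strand) had medians of 1.13, 1.41, 3.38, 50.2 and 56.8 FPKM in the same order. All 13 Late Immature Neurons had at least 1.79 FPKM, and Mature Neurons had 0 to 453 against 0 to 21.5 in Progenitors. The difference for Mature Neurons minus Progenitors was 3.40, and 3.67 within D316 to D434.

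The other core subunits differed less. Ift88, the subunit mutated in the Oak Ridge polycystic kidney mouse, was detected in 15 of 25 Mature Neurons and 2 of 11 Progenitors, with medians of 1.49 and 0.0448 FPKM and a difference of 2.25. Ift52, a scaffold subunit of the core, had a difference of 1.42, and of -0.09 without the cells in which Cbr2 or Cyp2g1 reached 100 FPKM. Ttc26, a subunit needed for part of the ciliary cargo, had 1.19, and 0.095 within D316 to D434. Ift46, a core subunit that carries outer dynein arms in Chlamydomonas, was detected in 21 of 27 Early Immature Neurons with a median of 46.1 FPKM, against 5 of 9 Precursors with 1.47. Its Mature Neuron minus Progenitor difference was -0.23, and 1.01 within D316 to D434. Hspb11 (Ift25), the partner of Ift27, had -0.10, and -3.34 within D316 to D434. Ift27 (chr15:78159465-78174108, minus strand), a GTPase subunit that serves exit of signalling proteins from cilia, was the core subunit that was lower. Mature Neurons had a median of 1.19 FPKM (0 to 490) and Progenitors of 32.7 (0 to 109), with a difference of -1.65 (-3.89 within D316 to D434, and -0.83 without libraries under 3 fragments per FPKM and kb). The highest values of both stages overlap, and 13 of 25 Mature Neurons and 8 of 11 Progenitors had it.

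Of the 6 peripheral IFT-B genes, Traf3ip1 (Ift54, chr1:91494668-91529303, plus strand), a subunit that binds tubulin, had the largest difference. Its median FPKM was 0.0458 in Progenitors (0 to 9.54), 0.527 in Precursors (0 to 35.7), 44.0 in Early Immature Neurons (0 to 164), 68.3 in Late Immature Neurons (2.91 to 158) and 39.1 in Mature Neurons (0.205 to 576). The medians of the 3 neuronal stages are above every Progenitor and every Precursor, while the lowest neurons overlap with them. The difference was 3.16 for Early Immature Neurons minus Precursors (3.78 within D316 to D434) and 3.54 for Mature Neurons minus Progenitors. Within D316 to D434 the last difference was -0.42, with 0.205 to 25.5 FPKM in 4 Mature Neurons and 0.288 to 9.54 in 3 Progenitors.

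Ift20, the subunit that also works at the Golgi, also had its highest median in Late Immature Neurons. Its medians were 1.203, 1.47, 13.4, 135 and 1.74 FPKM from Progenitor to Mature Neuron, and 12 of 13 Late Immature Neurons and 13 of 25 Mature Neurons had it. The difference for Mature minus Late Immature Neurons was -2.64, and 0.0089 within D316 to D434, where the 4 Mature Neurons had 1.74 to 271 FPKM and the 6 Late Immature Neurons 1.401 to 219. Ift57 was detected in 8 of 25 Mature Neurons and 9 of 13 Late Immature Neurons, with a difference of -2.01. Ift57 shares 8.65% of its exon bases with Gm15518 on the opposite strand, whose reads cannot be told apart without strand. Ift80 was detected in 10 of 11 Progenitors, 3 of 9 Precursors, 16 of 27 Early Immature Neurons, 12 of 13 Late Immature Neurons and 21 of 25 Mature Neurons. Its difference was -1.74 for Precursors minus Progenitors and 1.58 for Early Immature Neurons minus Precursors. Ift172, the largest IFT-B subunit, was detected in 10 of 25 Mature Neurons and 3 of 11 Progenitors (difference 0.73, and 2.84 within D316 to D434). Cluap1 (Ift38) was detected in 3 of 25 Mature Neurons and 2 of 11 Progenitors (-0.32), and 28.7% of its exon bases are shared with Gm20695 on the same strand, so its values are uncertain.

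As a group, the 5 listed IFT-A genes had lower levels than the IFT-B genes. The median over the genes of their median FPKM was 0.77 in Late Immature Neurons, beside 8.60 for IFT-B. In Mature Neurons it was 0.20 beside 1.57. Single genes overlapped: in Late Immature Neurons mean log2(FPKM + 1) was 3.49 for Ift140 and 0.98 for Ift52 of IFT-B. The lower level does not hold for Ift43, an IFT-A subunit outside the list whose values are given further on. The summed level of the 5 listed IFT-A genes had medians of 13.2, 1.499, 33.3, 64.2 and 35.2 FPKM from Progenitor to Mature Neuron. For the 15 IFT-B genes, a larger set, it was 183, 321, 496, 775 and 880 FPKM. The IFT-A sum was highest in Late Immature Neurons and the IFT-B sum in Mature Neurons. FPKM summed over all genes compared also differed, with medians of 916931 in Late Immature and 2.73e+06 in Mature Neurons. Sums of different stages are therefore not on 1 scale, and they do not show that the groups peak at different stages. Ift140 and Ift122, subunits of the IFT-A core, followed similar courses. Ift140 (chr17:25016391-25099495, plus strand) was detected in 12 of 25 Mature Neurons, 8 of 13 Late Immature Neurons, 11 of 27 Early Immature Neurons, and 1 cell each of Precursors and Progenitors. Its difference for Mature Neurons minus Progenitors was 1.68, and 0.36 without the 8 Progenitors and 1 Precursor with S100a8 or S100a9. Ift122 (chr6:115853470-115926699, plus strand) was detected in 9 of 13 Late Immature Neurons with a median of 3.77 FPKM, and in 7 of 27 Early Immature Neurons with 0.0887. That difference was 1.90, and 2.94 within D316 to D434. Wdr19 (Ift144) was detected in 4 of 25 Mature Neurons and 2 of 11 Progenitors, and Wdr35 (Ift121) in 10 of 25 and 5 of 11; both differences were under 1. Ttc21b (Ift139), a subunit at the edge of the complex, reached 1 FPKM in 1 Progenitor, 3 Early Immature Neurons and 1 Mature Neuron.

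Of the 6 motor subunits, 1 was higher and 1 lower in Mature Neurons than in Progenitors. Beside 18.4% higher and 28.6% lower of all genes compared, these counts do not set the motors apart. Kif3a (chr11:53567379-53601967, plus strand), a motor chain of heterotrimeric kinesin-2, had medians of 41.8, 28.0, 39.0, 13.4 and 1.33 FPKM from Progenitor to Mature Neuron. Mature Neurons had 0 to 226 FPKM and Progenitors 0.236 to 225, so the ranges overlap almost wholly. The difference was -1.505 for Mature Neurons minus Progenitors, but -0.15 within D316 to D434 and -0.58 without cells with Cbr2 or Cyp2g1 at 100. Kifap3 (chr1:163779583-163917109, plus strand), the non-motor subunit of the same kinesin, was higher, with medians of 0.345, 0.344, 4.28, 20.4 and 37.9 FPKM. It was detected in 23 of 25 Mature Neurons and 4 of 11 Progenitors, with a difference of 2.91 (5.02 within D316 to D434). Kif3b, the second motor chain, was detected in 16 of 27 Early Immature Neurons and 3 of 9 Precursors (1.61), and its Mature Neuron minus Progenitor difference was 0.46. Kif17, the homodimeric kinesin that has been linked to the olfactory transduction channel, reached 1 FPKM in 0 Progenitors, 1 Precursor, 2 Early Immature Neurons, 4 Late Immature Neurons and 1 Mature Neuron. Of the dynein-2 genes, the heavy chain Dync2h1 was detected in 15 of 25 Mature Neurons and 5 of 11 Progenitors (0.88), and the light intermediate chain Dync2li1 in 16 of 25 and 6 of 11 (0.90).

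Of the transition zone genes, Rpgrip1l (chr8:91217030-91313262, minus strand), a scaffold of the gate, was detected in 14 of 25 Mature Neurons and 2 of 11 Progenitors, with medians of 1.29 and 0.0317 FPKM and a difference of 1.97 (2.41 within D316 to D434). Tmem67 (meckelin), a membrane protein of the gate, was detected in 2 of 11 Progenitors, 7 of 9 Precursors, 9 of 27 Early Immature Neurons, 2 of 13 Late Immature Neurons and 12 of 25 Mature Neurons. The Progenitor mean rests on D172, which had 594 FPKM, while the Progenitor median was 0.127. Tmem67 shares 6.82% of its exon bases with Rbm12b2 on the opposite strand. Cep290, a large protein that links the microtubules to the membrane, was detected in 6 of 25 Mature Neurons and 1 of 11 Progenitors (0.97), and shares 9.69% of its exon bases with 4930430F08Rik on the opposite strand. Mks1, a B9 domain protein, was detected in 3 of 25 Mature Neurons and 4 of 11 Progenitors (-1.08, and -0.33 within D316 to D434), and in 0 of 9 Precursors and 0 of 13 Late Immature Neurons. Tulp3, the adaptor that brings membrane receptors to IFT-A, was detected in 15 of 25 Mature Neurons and 5 of 11 Progenitors. Its difference was 0.43, and 2.29 within D316 to D434.

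Of the transcription factors, Rfx3 (chr19:27761721-28011140, minus strand) was detected in 13 of 13 Late Immature Neurons, 3.12 to 100 FPKM. Its medians were 1.97, 2.18, 6.08, 17.6 and 12.5 FPKM from Progenitor to Mature Neuron, and the difference for Mature Neurons minus Progenitors was 1.81 (0.22 within D316 to D434). Rfx2 was detected in 7 of 25 Mature Neurons and 1 of 11 Progenitors (0.68). Foxj1 (chr11:116330704-116335399, minus strand) was near the floor: it was detected in 5 of 25 Mature Neurons, 2 of 13 Late Immature Neurons, 5 of 27 Early Immature Neurons, 0 of 9 Precursors and 0 of 11 Progenitors (exact 95% interval up to 28.5%), and its highest value outside Mature Neurons was 4.53 FPKM. Foxj1 had 54.4 FPKM in 1 Mature Neuron.

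By stage of the highest mean, 17 of the 37 genes were highest in Late Immature Neurons, 12 in Mature Neurons, 4 in Early Immature Neurons, and 2 each in Precursors and Progenitors. The lowest mean was in Progenitors for 16, in Precursors for 14, in Mature Neurons for 5, and in 1 gene each in the Early and Late Immature Neurons. These counts were not made over all genes compared, so they are not read as particular to the 37. All genes compared were themselves detected most often in Late Immature Neurons (43.3%) and least often in Mature Neurons (34.6%). Means over 9 to 27 cells with the repeat error above do not settle the order of neighbouring stages for single genes.

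A further 54 genes of the same pathways, listed by role, gave 16 higher and 6 lower in Mature Neurons than in Progenitors, with a median of 0.12. These are 29.6% and 11.1% of the list, beside 18.4% and 28.6% of all genes compared. Precursors minus Progenitors gave 7 higher (13%) and 3 lower (5.56%), beside 12.5% and 13.9%. Early Immature Neurons minus Precursors gave 15 (27.8%) and 3 (5.56%), beside 16.5% and 15.8%. Late minus Early Immature Neurons gave 14 (25.9%) and 2 (3.7%), beside 17.6% and 10.9%. Mature minus Late Immature Neurons gave 1 (1.85%) and 6 (11.1%), beside 3.2% and 18.3%. The counts higher in the first and the last of these 4 pairs are near the share of all genes. Of 3 other IFT subunits 1 was higher and 0 lower, and of 6 other ciliary transcription factors 0 were higher and 1 lower. Ift43, an IFT-A subunit, had the largest difference, with medians of 467 FPKM in Mature Neurons and 1.74 in Progenitors and a difference of 4.83; its Mature Neuron median is above that of each of the 15 listed IFT-B genes. Among 13 other motor subunits, 7 were higher and 1 lower, and the largest differences were 3.15 for Dynlt1c, 2.56 for Dynlrb2, 2.51 for Kif3c and 2.50 for Wdr34, light, intermediate or motor chains of dynein and kinesin. Among 5 genes of lipidated cargo transport, 2 were higher and 1 lower. Pde6d, a carrier of lipidated proteins that Arl3 unloads, had 724 FPKM in Mature Neurons and 41.5 in Progenitors (medians, difference 4.51), and Rp2h, the GTPase-activating protein of Arl3, 37.3 and 0 (4.05). Among 19 other transition zone genes, 6 were higher and 1 lower. Among 8 genes of the distal appendages and the centriole cap, 0 were higher and 2 lower: Ccp110, a cap of the mother centriole that blocks cilium growth, had medians of 61.4 FPKM in Mature Neurons and 261.5 in Progenitors (-3.29), and its partner Cep97 had 0.063 and 16.7 (-2.55).

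Genes that mark motile cilia and multiciliated cells were examined as well, since multiciliated cells also use IFT. Of 15 such genes, 8 (53.3%) were higher in Mature Neurons than in Progenitors and 0 lower, beside 18.4% and 28.6% of all genes compared. Their summed level had medians of 0.414, 73.1, 191.8, 567 and 759 FPKM from Progenitor to Mature Neuron. It ranged from 6.68 to 4766 FPKM in Mature Neurons and from 0 to 128 in Progenitors, so it moved with the stages in the same direction as the IFT genes, and its part in the result was not tested. The radial spoke genes Rsph1 and Rsph9 had differences of 5.91 and 5.56, Ccdc40 4.06 and Tekt1 2.36. The axonemal dynein gene Dnah5 and Fam183b were at 0 in all 85 cells. The multiciliated cell regulator Mcidas reached 1 FPKM in 3 of 11 Progenitors, up to 12.1 FPKM, and in 0 cells of the later stages, and Gmnc in 1 of 27 Early Immature Neurons and 0 cells of the other stages.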

How the data were processed

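The gene table deposited by the authors holds FPKM per gene for 93 single-cell libraries. Per the submitters' processing notes, alignment and quantification used TopHat2 2.0.14 with Cufflinks 2.2.1 on mm10, and CASAVA 1.8.2, cutadapt 1.2.1 and Trim Galore are named besides; no settings are named there. The annotation deposited by the authors gives gene positions (other values) on mm10. Rows of 1 symbol were taken once. The first library of each of 85 cells was used, and the 8 repeats served as a check.

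Depth was estimated from 2284 genes with 1 exon, whose low FPKM values are multiples of what 1 fragment is worth (tolerance 1%). Stages were compared by means of log2(FPKM + 1) over cells. A gene was compared where it had an FPKM of at least 1 in at least 9 of 85 cells (9894 genes). No model was fitted. The 37 genes and the other lists were chosen with earlier results of these data known. All 37 are named; other pathway and marker genes are named where Mature Neurons and Progenitors differ by at least 2, up to 4 per role, or where a check rests on them. Tools were Python 3.11.15, pandas 2.3.3, numpy 2.4.6 and scipy 1.17.1. The procedure was tested on simulated normal log2 values with known shifts. These lack the many zeros of the data, so the arithmetic was checked and not the error of the calls. Alternatives were another scaling, pseudocount, detection limit, cell range, left-out cells and averaged repeats. Promoters are from RefSeq tables (GRCm38.p6).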

Additional observations from a re-analysis of the deposited data

Results flagged for a closer look

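In the 9 Precursors, 12 of 38 sets of values held a cell whose gap to the next, over the whole range, passed Dixon's 95% critical value on log2(FPKM + 1). Chance picks about 1 in 20 groups where values are normally distributed; these sets hold many values at or near 0, so that rate does not apply, and a single cell with the gene detected can be enough. Precursor D345 stood apart for Ift172 (13.0 FPKM), Ift140 (14.01), Wdr19 (9.78) and Rfx2 (51.3). Of the Precursors this cell also had the most genes detected of all kinds, 5158 beside a median of 3873. Precursor D195 stood apart for Tulp3 (20.4), and for traces of Ttc21b (0.0725) and Foxj1 (0.0581). Ift52 had 75.97 FPKM in D374 and Kif17 8.28 in D398. Traces under an FPKM of 1 stood apart for Ift122 in D242 (0.159), and for Cep290 (0.293) and Mks1 (0.354) in D179. The other stages have 11 or more cells and were not examined in this way.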

How the results depend on the processing

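Shares of all genes past the same size stand in brackets. With libraries scaled over nuclear genes, 8 genes were higher in Precursors than in Progenitors (15.1%), Mature minus Late Immature Neurons had a median of -1.03 with 19 lower (33.8%), and 24.5 genes were detected per Late Immature Neuron. With a pseudocount of 0.1, 12 were higher in Precursors than in Progenitors (21.2%), 21 in Early Immature Neurons than in Precursors (27.0%), and 15 lower in Mature than in Late Immature Neurons (34.7%). In D316 to D434, Precursors had 12 lower than Progenitors (24.0%), and Mature Neurons 11 higher (17.9%) and 12 lower (21.6%) than Late Immature Neurons. Without cells with S100a8 or S100a9 at 100, Precursors had 8 higher (16.3%) and 12 lower (22%), and Mature Neurons 5 lower than Progenitors (32.1%). Without cells with Cbr2 or Cyp2g1 at 100, Mature Neurons had 15 lower than Late Immature Neurons (23.6%) and 5 lower than Progenitors (32.7%). With repeats averaged in, 1 was lower in Early Immature Neurons than in Precursors (14.9%), 1 in Late than in Early Immature Neurons (9.32%) and 13 in Mature than in Late Immature Neurons (21.1%). At a detection limit of 5, 16.8 genes were detected per Late Immature and 14.5 per Mature Neuron. Of 185 differences (37 genes, 5 pairs), 34 had another sign in D316 to D434. Of the 67 that reached 1 in size, 15 were under 1 in size there. Cluap1 in Precursors minus Progenitors is not among these 15, since it had -1.15 there with its sign turned. Among those 67, signs turned for Cluap1 and Tulp3 in Precursors minus Progenitors (-1.15 and 0.35 in D316 to D434, -1.48 and 0.75 without S100a8 or S100a9), for Ift52 without Cbr2 or Cyp2g1 (-0.31 for Mature minus Late Immature Neurons, -0.094 for Mature Neurons minus Progenitors), and in D316 to D434 for Ift20 (0.0089, Mature minus Late) and Traf3ip1 (-0.42, Mature minus Progenitor). The cause was not tested. Leaving out 1 cell gave 4 to 8 higher and 4 to 6 lower for Precursors minus Progenitors, 11 to 16 and 1 to 2 for the next pair, 9 to 14 and 1 to 3 for Late minus Early, 3 to 6 and 6 to 12 for Mature minus Late, and 15 to 18 and 2 to 3 for Mature minus Progenitor; medians ranged 0.0063 to 0.36, 0.60 to 0.89, 0.20 to 0.49, -0.53 to -0.11 and 0.72 to 0.97. Depth limits low values: at 0.607 fragments per FPKM and kb, an FPKM of 1 is under 1 fragment.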
